A study of Mus musculus with 4 samples.

Results

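Kidney cells of mice treated with panobinostat were compared, class by class, with kidney cells of mice treated with givinostat, both inhibitors of histone deacetylases (HDACs). The members were the cells whose barcodes carry the name of either drug and that had 200 or more detected genes: 4396 cells of the panobinostat library and 3472 cells of the givinostat library, 7868 of the 15777 cells kept over all 4 libraries. Each side was 1 library, so every difference below lies between 2 libraries and has no replicate check. All animals were 9-week-old male C57Bl/6 mice of the genotype Pax2.rtTA;TetO.Cre;R26.Confetti, in which a Cre recombinase under inducible control of Pax2 acts on the multicolour Confetti reporter. Anti-GBM serum, whose antibodies bind the basement membrane of the glomerulus, was given to all of them to model crescentic glomerulonephritis. Treatment began 1 day later, and kidneys were taken on day 7. The panobinostat group received 15 mg/kg and the givinostat group 10 mg/kg, so the doses differed and the values are given side by side as those of libraries, not as a comparison of compound potency. A vehicle library (distilled water) and a library of the Janus kinase inhibitor ruxolitinib (60 mg/kg) give a frame for each level. The labels state 2 animals per group and do not say whether both were pooled in the library. There is no group without anti-GBM serum, so all values are from nephritic kidneys.

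Panobinostat and givinostat share a hydroxamate group, which binds the zinc ion in the active site of HDACs. In panobinostat this group ends a cinnamic chain and the cap of the molecule is an indole. In givinostat it sits directly on a benzene ring and the cap is a naphthalene joined through a carbamate. HDACs remove acetyl groups from histones and other proteins, and their inhibition alters the transcription of many genes in either direction. A set of 3 gene programmes is followed below: immediate early genes, which are transcribed within minutes of a stimulus and also during tissue dissociation, heat shock chaperones, which are transcribed when proteins unfold, and interferon response genes, which are transcribed through STAT and IRF factors. The distal nephron consists of the thick ascending limb of the loop of Henle, which reabsorbs salt, the distal convoluted tubule and the connecting tubule, which also recover calcium and magnesium, and the collecting duct with principal cells for sodium and water and intercalated cells for acid and base.

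The libraries held 36861583 (panobinostat) and 45075309 (givinostat) UMIs, unique molecular identifiers that count captured transcripts. The median per cell was 6568.5 UMIs in the panobinostat library and 10020.5 in the givinostat library, and the lowest cell had 2920 and 5272 UMIs. The median mitochondrial share was 12.6% and 6.33%. The libraries shared 4 cell barcodes. Transcripts of the proximal tubule, the most abundant epithelium, were found in every other class: the summed level of 15 proximal tubule markers was higher in the panobinostat library in 17 of 18 other classes and clusters, with ratios from 0.794 to 10.2, while it was 0.976 times the givinostat level within proximal tubule-like cells. Within classes, counts were summed per library and given as CPM, that is UMIs per 1000000 UMIs of that class and library. Ratios are panobinostat over givinostat with exact 95% intervals, and all intervals cover counting error only. Genes with a mean of at least 20 CPM and at least 20 UMIs over both libraries are called measured. Log2 ratios carry a pseudocount of 5 CPM, and a gene is past 1.5-fold if its log2 ratio is.

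The 2 libraries differed in their mix of cells. T-like cells, the lymphocytes that carry the CD3 complex, made up 10.4% of the panobinostat library and 23.6% of the givinostat library, beside 19.7% with vehicle and 15.1% with ruxolitinib. The ratio was 0.442 [0.394 to 0.496]. Proximal tubule-like cells made up 57.4% and 34.5%, with 45.8% and 44.2% in the vehicle and ruxolitinib libraries, a ratio of 1.66 [1.55 to 1.78]. For both classes the vehicle and ruxolitinib libraries lay between the libraries of the HDAC inhibitors. Dendritic-like cells, which take up and present antigen, made up 5.53% and 6.13% of kept cells, a ratio of 0.901 [0.747 to 1.09]. As a share of leukocyte-like cells they were 19.2% and 12.7%, a ratio of 1.51 [1.25 to 1.82], and the vehicle (19.0%) and ruxolitinib (19.1%) libraries were close to the panobinostat library. NK-like cells were 8.47% and 5.75% of leukocyte-like cells, B or plasma-like cells 4.12% and 3.41%. Over kept cells both ratios were below 1. NK-like cells were 2.43% and 2.76% of them, a ratio of 0.880 [0.662 to 1.17], and B or plasma-like cells 1.18% and 1.64%, a ratio of 0.721 [0.485 to 1.07]. Loop of Henle-like cells were 3.34% and 4.75% of kept cells, a ratio of 0.704 [0.560 to 0.884], and intercalated-like cells 1.07% and 1.47%. The cluster that holds distal convoluted, connecting and principal cells made up 3.64% and 3.0%, a ratio of 1.22 [0.943 to 1.57]. The lowest UMI count among kept cells differed between the libraries. With only cells of at least 5272 UMIs kept, the T-like ratio was 0.168 and the dendritic-like ratio 1.23. This floor is the lowest count of the givinostat library, so of these 2 libraries it left out panobinostat cells only. T-like cells had a median of 4188 UMIs with panobinostat, under the floor, and 7358.5 with givinostat. Dendritic-like cells had 8520 and 15315. These ratios therefore carry the difference in depth.

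**Figure D1:**
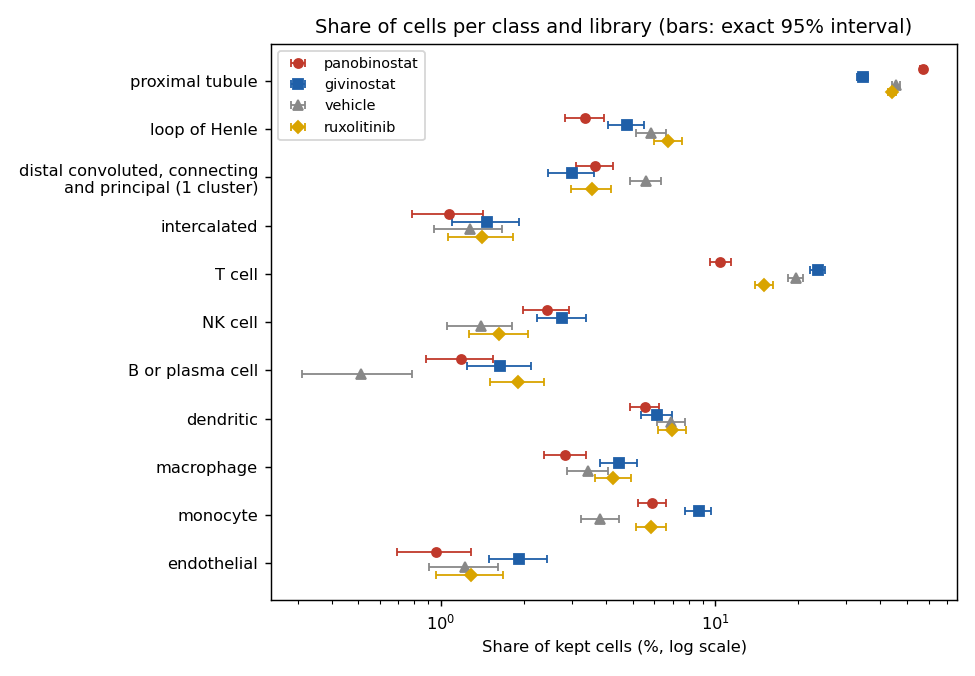
Share of kept cells in each named class (x axis, percent, log scale) for the 4 libraries, 1 point per library with its exact 95% interval, which covers counting error only. T-like cells were 10.4% of the panobinostat library and 23.6% of the givinostat library, and proximal tubule-like cells 57.4% and 34.5%.

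Within the T-like class the libraries differed in which clusters supplied the cells. The cytotoxic cluster, led by Ccl5, Xcl1, Nkg7 and Cd8b1, held 49.2% of T-like cells with panobinostat and 33.5% with givinostat. The cluster led by Ctla4, Il17a and Icos, below called by Ctla4 and Icos, which encode receptors of activated and regulatory T cells, held 22.4% and 36.2%. The cluster led by Il17a and Trdc, genes of interleukin 17-producing gamma-delta T cells, held 6.10% and 13.7%, while vehicle had 15.1% and ruxolitinib 15.3%. The Ccr7 and Lef1 cluster of recirculating cells held 22.2% and 16.6%. Over all leukocyte-like cells the Il17a and Trdc cluster was at 2.22% and 6.70%, a ratio of 0.331 [0.210 to 0.504], and the Ctla4 and Icos cluster at 8.16% and 17.8%, a ratio of 0.459 [0.363 to 0.576]. The cytotoxic cluster (17.9% and 16.5%) and the Ccr7 and Lef1 cluster (8.08% and 8.14%) had ratios of 1.09 and 0.992. Levels over the whole T-like class therefore carry this difference in mix, and the other single clusters are given beside them. The Il17a and Trdc cluster had 28 panobinostat cells, under the minimum of 30 a side, so no gene levels within it are given. The type 17 levels below therefore include its smaller share with panobinostat.

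Over all T-like cells, 459 with panobinostat and 820 with givinostat, 1.23% of 5468 measured genes were past 1.5-fold higher in the panobinostat library and 3.91% were past 1.5-fold lower, that is 67 and 214 genes. With TMM-scaled totals the split was 96 and 151, and with the same cluster mix on both sides 179 genes passed in all. The gene with the lowest ratio among those of at least 100 CPM was Il17a, the cytokine that gives type 17 lymphocytes their name (chromosome 1, 20730905 to 20734496, GRCm38). Il17a was at 115 CPM with panobinostat, 486 with givinostat, 492 with vehicle and 490 with ruxolitinib, so the panobinostat library was low against 3 near-equal libraries. Its ratio was 0.237 [0.207 to 0.270], from 244 UMIs in 19 cells and 3251 UMIs in 126 cells. Of 16 measured type 17 genes 10 were past 1.5-fold lower and 0 higher, with a median log2 ratio of -0.80 beside -0.10 over all measured genes, and 16 of 16 were lowest of the 4 libraries with panobinostat. Rora, a transcription factor of these cells, was at 268 and 568 CPM (565 vehicle, 456 ruxolitinib). Within the cytotoxic cluster 7 type 17 genes were measured, 2 past 1.5-fold higher and 1 lower, in a background of 2.57% and 4.64%. Within the Ctla4 and Icos cluster 4 of 11 were lower and 0 higher, in a background of 6.86% lower and 4.49% higher. In that cluster Il17a was at 93.4 and 210 CPM, with 1 cell holding 65.9% of the UMIs of the panobinostat library.

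The 8 genes with the highest ratios in T-like cells were Klf2, Ccl5, Lgals3, Ly6c2, Cd8b1, Tsc22d3, Bcl2 and Acp5. Klf2, a transcription factor of resting lymphocytes that supports their exit into blood and lymph (chromosome 8, 72319033 to 72321656, GRCm38), was at 1797 CPM with panobinostat, 1032 with givinostat, 1062 with vehicle and 1421 with ruxolitinib. Its ratio was 1.74 [1.67 to 1.81]. It was higher in each of 3 clusters, at 1727 and 864 CPM in the cytotoxic cluster, 1011 and 724 in the Ctla4 and Icos cluster, and 2746 and 2340 in the Ccr7 and Lef1 cluster. It was also at 3342 and 2202 CPM in NK-like cells and at 2412 and 1832 in B or plasma-like cells. Ccl5, a chemokine of cytotoxic cells, was at 4540 and 2904 CPM (2614 vehicle, 2685 ruxolitinib) over the class, but at 8505 and 7783 within the cytotoxic cluster. Cd8b1, the beta chain of CD8, went from a ratio of 1.49 over the class to 1.07 within that cluster. Of 14 genes of naive and central lymphocytes 1 was past 1.5-fold higher and 0 lower, with a median log2 ratio of 0.38. The background was 1.23% higher and 3.91% lower. Lef1 and Ccr7 were at 209 and 288 CPM with panobinostat and at 156 and 201 CPM with givinostat.

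Within the cytotoxic cluster, 226 and 275 cells, 2.57% of 5480 measured genes were past 1.5-fold higher and 4.64% lower. Gzmb, the granule protease granzyme B (chromosome 14, 56258838 to 56262260, GRCm38), was at 150 CPM with panobinostat, 439 with givinostat, 75.5 with vehicle and 509 with ruxolitinib. The 4 libraries thus fell into 2 low and 2 high ones, and the ratio of 0.341 [0.287 to 0.404] was smaller in size than the difference between vehicle and ruxolitinib. At equal depth, with each cell thinned to 2920 UMIs, 23% [17.7 to 29.1] of panobinostat cells and 36% [30.3 to 42.0] of givinostat cells had a Gzmb UMI, against 27.0% and 47.6% before thinning. Proximal tubule-like cells, which should lack the gene, had thinned shares of 0.238% and 0.417%. The median UMI count was 4395 and 7573 in the cytotoxic cluster and 7681 and 12873.5 in proximal tubule-like cells. In NK-like cells Gzmb was at 1071 and 1380 CPM (1036 vehicle, 1133 ruxolitinib). Of 17 T cell activation and checkpoint genes 6 were past 1.5-fold lower over the T-like class, in a background of 3.91% lower. Their median was -0.42, and Ctla4 was at 159 and 302 CPM. In the Ctla4 and Icos cluster itself the median was 0.13, with 0 higher and 2 lower (background 4.49% higher and 6.86% lower of 5610 genes), and Ctla4 was at 547 and 633 CPM.

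NK-like cells, innate lymphocytes with the same granule proteins, numbered 107 and 96. Of 5305 measured genes 6.39% were past 1.5-fold higher and 8.31% lower, a wider background than in T-like cells. Ifng, the gene of interferon gamma, was at 722 CPM with panobinostat, 440 with givinostat, 554 with vehicle and 655 with ruxolitinib, and givinostat was the lowest of the 4. Its ratio was 1.64 [1.41 to 1.92]. Gzma, the most abundant granzyme here, was at 8710 and 8150 CPM, and the pore protein Prf1 at 889 and 751. Of 21 measured cytotoxic genes 2 were past 1.5-fold higher (Ifng and Ccl3) and 1 lower (Klrg1), with a median of 0.19. Ly6c2, a surface protein gene, was at 227 and 85.7 CPM, a ratio of 2.65 [1.93 to 3.66]. Lmna, nuclear lamin A, was at 87.8 and 168 CPM and Tuba1b, an alpha tubulin, at 76.5 and 141 CPM. Erythroid transcripts summed to 3061 CPM with panobinostat and 154 with givinostat in NK-like cells, and their part in these values was not tested.

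Immediate early genes had medians at or below 0 in the 3 lymphocyte classes. In T-like cells 1 of 31 was past 1.5-fold higher (Klf2) and 4 lower, with a median of -0.12, in a background of 1.23% higher and 3.91% lower. The lower ones were Nr4a3, a nuclear receptor induced by antigen receptor signals, at 126 and 235 CPM, Gadd45b at 250 and 456, the G protein regulator Rgs1 at 1056 and 1828, and the stress factor Atf3 at 93.5 and 165. The AP-1 genes that dominate dissociation signatures were near a ratio of 1 there: Fos was at 804 and 871 CPM, Jun at 805 and 718, Junb at 3391 and 3586, and Dusp1 at 785 and 781. In NK-like cells 2 of 32 were higher and 1 lower, with a median of -0.02, no more than the background of 6.39% and 8.31%. In the cytotoxic T cluster the median was 0.02, with 1 of 32 higher and 2 lower in a background of 2.57% and 4.64%. B or plasma-like cells, 52 and 57, had 0 of 33 higher and 14 lower with a median of -0.43, in a background of 12% higher and 21.1% lower. At equal depth their cells held a mean of 53.2 and 53.0 UMIs of the list per 2920 UMIs. T-like cells held a median of 54 and 58 such UMIs, and NK-like cells 75 and 68. In each of these classes the middle 50% of cells overlapped broadly between libraries.

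Heat shock chaperones had medians within 0.12 of 0 in lymphocyte and dendritic-like classes, with few members past 1.5-fold. Their median log2 ratio was -0.01 in T-like cells (1 of 20 past 1.5-fold higher, 1 lower, background 1.23% and 3.91%), 0.04 in NK-like cells (2 of 18 higher, 0 lower, background 6.39% and 8.31%), 0.11 in B or plasma-like cells (2 of 18 higher, 2 lower, background 12% and 21.1%) and 0.12 in dendritic-like cells (0 of 18 in either direction, background 6.41% and 3.5%). Hsp90ab1, a constitutive HSP90, was at 1639 and 1507 CPM in T-like cells, and Hspa8, the constitutive HSP70, at 1458 and 1486. The higher gene in T-like cells was Cryab, a small heat shock protein, at 50.05 and 2.99 CPM, but 1 cell held 88.7% of its UMIs in the panobinostat library. The lower one was the inducible HSP70 gene Hspa1a, at 21.7 and 36.01 CPM. In the Xcr1 dendritic cluster Hspa1a was at 221 CPM with panobinostat, 51.7 with givinostat, 54.7 with vehicle and 133 with ruxolitinib, and its near-identical copy Hspa1b at 114, 18.2, 12.6 and 61.1 CPM. How reads divide between these copies is uncertain. That cluster had 45 and 36 cells, 5 of 18 chaperones past 1.5-fold higher and 1 lower, and a median of -0.01, in a background of 10.3% higher and 8.93% lower. Erythroid transcripts summed to 7700 and 90.8 CPM in this cluster (6 of 6 higher with panobinostat), cycling markers to 2043 and 1223 CPM (10 of 10 higher) and T cell markers to 64.3 and 447 CPM, and their part in its chaperone and interferon values was not tested.

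**Figure D2:**
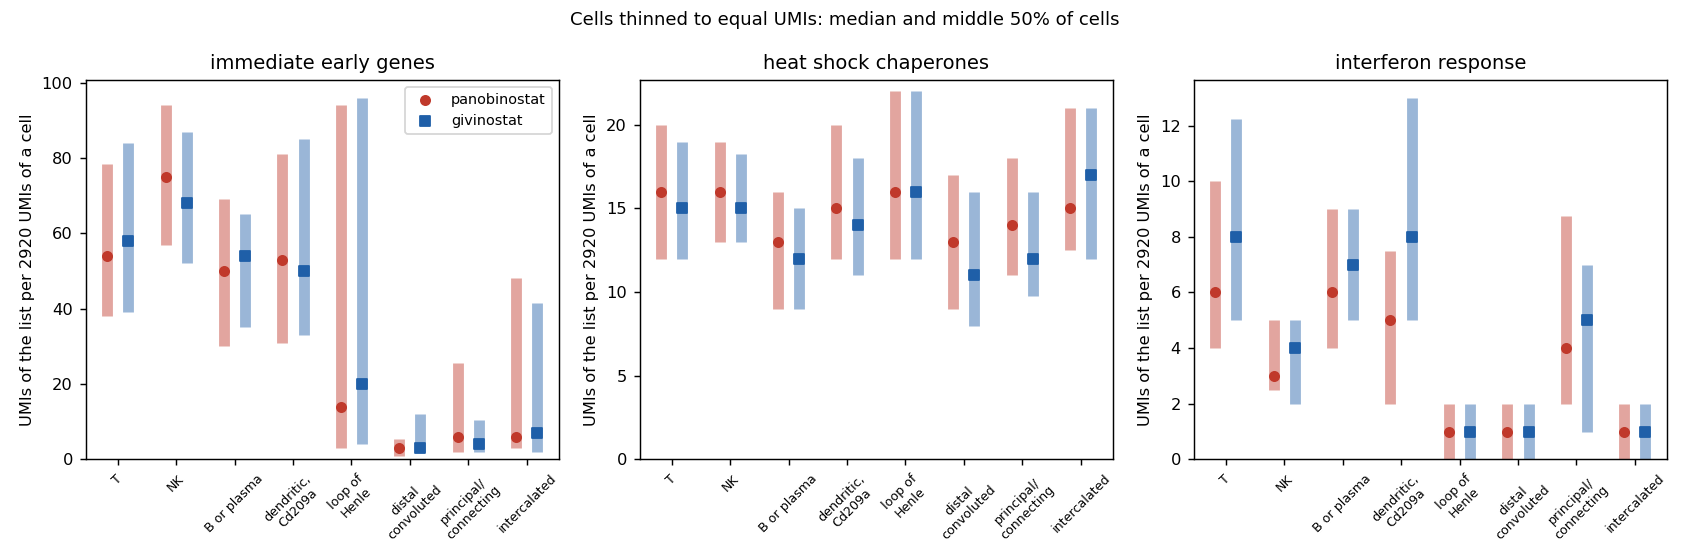
UMIs of 3 gene lists per cell after thinning every cell to 2920 UMIs (y axis), with the median (point) and the middle 50% of cells (bar) for both libraries in 8 classes. Immediate early genes and chaperones overlap in each class, and in the Cd209a dendritic cluster the median of interferon response UMIs is 5 with panobinostat and 8 with givinostat.

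The dendritic-like class, 243 and 213 cells, differed in interferon response genes, of which more than the background share were lower in the panobinostat library. Of 5882 measured genes 6.41% were past 1.5-fold higher and 3.5% lower. Of 25 measured interferon response genes 0 were higher and 17 lower, with a median log2 ratio of -0.80 beside -0.05 over all genes. At a coarser and a finer clustering the median was -0.29 and -0.54. In the Cd209a cluster, the largest one with 155 and 151 cells, 0 of 29 were higher and 26 lower with a median of -0.90, where the background was 9.63% higher and 7.09% lower. For 28 of these 29 genes the givinostat library was the highest of the 4, and for 13 the panobinostat library was the lowest. The median ratio to vehicle on the log2 scale was -0.37 for panobinostat and 0.57 for givinostat, so the vehicle level lay between them. Both ratios use the same vehicle library. In the Xcr1 cluster 0 of 15 were higher and 5 lower, with a median of -0.38, in a background of 10.3% and 8.93%. A further dendritic-like cluster, led by Siglech and Ccr9, held 43 and 26 cells, 17.7% and 12.2% of the class. It was under the minimum of 30 cells a side, so no gene levels within it are given. Its part in the values of the whole class was not tested.

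The genes of this group differ in what they do and in how their UMIs were spread over cells. Ifi27l2a, a small interferon-induced membrane protein gene (chromosome 12, 103442167 to 103443680, GRCm38), was at 397 CPM with panobinostat, 780 with givinostat, 653 with vehicle and 356 with ruxolitinib in the Cd209a cluster, a ratio of 0.509 [0.466 to 0.557]. Panobinostat and ruxolitinib were low and givinostat and vehicle high. Ifi203, a DNA-sensing family member, was at 110, 228, 161 and 168 CPM in the same order of libraries, and Ly6e at 469, 724, 502 and 492 CPM. The other genes described here were chosen after their values were seen. Oas1a, a sensor of double-stranded RNA, was at 9.52, 37.5, 16.99 and 7.23 CPM from 13 and 61 cells, and Isg15, a ubiquitin-like modifier, at 60.1, 117, 84.4 and 21.7 CPM. Irf7, which amplifies interferon transcription, was at 33.9, 78.0, 64.0 and 25.8 CPM. For Isg15 1 cell held 45.5% of the panobinostat and 39.9% of the givinostat UMIs. The chemokine genes rested on single cells: 1 cell held 79.1% of the givinostat UMIs of Cxcl9 and 75.7% of those of Cxcl10, and without the top cell of each library the Cxcl10 ratio was 1.18 in place of 0.542. At equal depth the list made up a median of 5 UMIs per cell with panobinostat and 8 with givinostat, with the middle 50% of cells at 2 to 7.5 and 5 to 13. The vehicle and ruxolitinib medians were 5 and 5, so givinostat was the high library by this measure.

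**Figure D3:**
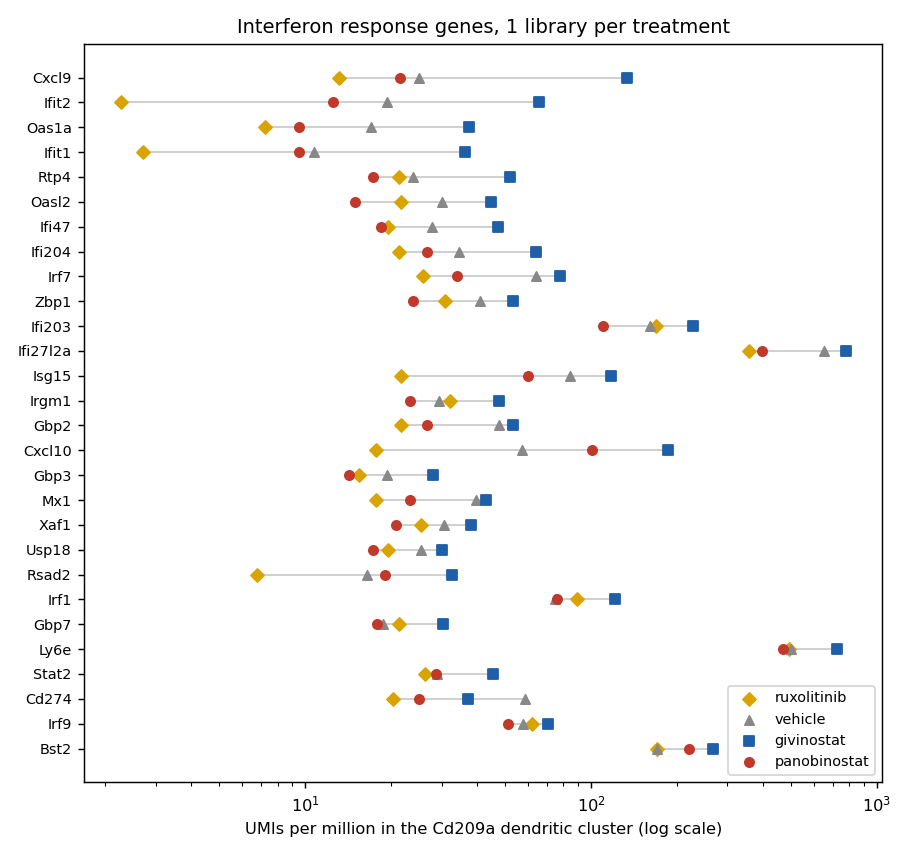
Level of interferon response genes in the Cd209a dendritic cluster, with 1 of the 29 measured genes not drawn (x axis, CPM, log scale), 1 point per library, ordered by the ratio of panobinostat to givinostat. The givinostat library is the highest for 28 of the 29 measured genes, the exception being Cd274, which is highest with vehicle.

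The promoters of these genes were examined because the genes differed together between the 2 libraries. The search was for the core of the interferon-stimulated response element, a site bound by IRF-containing complexes. The motif, GAAA followed by any 2 bases and GAAA, was searched on both strands in the 250 bases before each RefSeq start (GRCm38.p6), with overlapping matches allowed. It was present for 936 of 27025 genes (3.46%) and for 16 of 26 interferon response genes with a promoter in the table (61.5%). It was present for 3 of 14 MHC class I genes, 2 of 28 immediate early genes and 0 of 19 chaperones. Of the 29 genes measured in the Cd209a cluster 21 had a promoter in the table and 12 of these held the motif. The log2 ratios of genes with a match ran from -1.55 (Oas1a) to -0.27 (Bst2), those without from -2.39 (Cxcl9) to -0.43 (Irf9). Oas1a and Isg15 are shown as examples of genes with the motif. Ifit1 (-1.51) and Ifi203 (-1.02) also held it and had lower ratios than Isg15 (-0.91). The letters in capitals are the bases covered by matches of the motif. The Oas1a sequence is the minus strand of chr5:120907526-120907775, and the Isg15 sequence is the minus strand of chr4:156200819-156201068. Both are read 5′ to 3′ and end at the base before the start.
Oas1a: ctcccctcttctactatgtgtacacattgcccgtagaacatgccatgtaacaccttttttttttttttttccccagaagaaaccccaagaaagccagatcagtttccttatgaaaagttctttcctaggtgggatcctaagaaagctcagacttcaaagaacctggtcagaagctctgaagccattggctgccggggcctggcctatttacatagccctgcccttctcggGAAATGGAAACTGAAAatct
Isg15: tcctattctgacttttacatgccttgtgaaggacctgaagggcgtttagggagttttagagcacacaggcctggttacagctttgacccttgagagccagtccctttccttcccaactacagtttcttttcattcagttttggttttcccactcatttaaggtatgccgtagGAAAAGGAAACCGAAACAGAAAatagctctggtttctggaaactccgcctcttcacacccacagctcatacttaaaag
The match farthest from the start began 20 bases before it in Oas1a, which had 2 overlapping matches, and 78 bases before it in Isg15, which had 3. A match describes the sequence only and shows neither binding nor a cause.

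MHC class I genes, which interferons also raise, were lower as well in dendritic-like cells: 7 of 15 were past 1.5-fold lower and 0 higher, with a median of -0.57. The background for this and the other lists of this class was 6.41% higher and 3.5% lower. The light chain B2m was at 1682 CPM with panobinostat, 2628 with givinostat, 2155 with vehicle and 1849 with ruxolitinib, a ratio of 0.640 [0.617 to 0.664]. H2-K1 was at 881, 1357, 1222 and 909 CPM. Givinostat was highest and panobinostat lowest for both. MHC class II genes did not share this: 1 of 14 was higher (Lgmn, a lysosomal protease) and 0 lower, with a median of -0.02, and the invariant chain Cd74 was at 15040 and 14054 CPM. The chemokine Ccl4 was at 559 and 1200 CPM, Ccl3 at 119 and 217, and Tnfaip3, a brake on NF-kB, at 256 and 447. Ccl2, which attracts monocytes, was at 233 and 113 CPM, the lectin Mgl2 at 583 and 302, and the complement gene C1qb at 200.2 and 99.4, but the ratios of Mgl2 and C1qb were below 1 at the coarser clustering. Of 34 immediate early genes 0 were higher and 6 lower in dendritic-like cells, with a median of -0.14, so more than the background share of 3.5% were lower. Maturation and costimulation genes had 1 of 19 higher and 2 lower, with a median of -0.17, and Cd86 was at 127 and 159 CPM. Other cell types' transcripts also differed in this class. The summed level of 12 macrophage markers was 980 and 768 CPM, that of 17 T cell markers 215 and 698 CPM (0 of 17 higher with panobinostat), that of 6 erythroid transcripts 1896 and 601 CPM (6 of 6 higher), and that of 15 proximal tubule markers 11900 and 5917 CPM. Their part in these differences was not tested.

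Interferon response levels were also lower with panobinostat than with givinostat in further leukocyte classes, but not in each. The median was -0.92 in Chil3 monocyte-like cells (23 of 28 past 1.5-fold lower, in a background of 2.64% higher and 6.62% lower), -0.68 in macrophage-like cells (19 of 31, background 7.72% and 8.67%), -0.46 in Treml4 monocyte-like cells (6 of 14, background 5.69% and 5.69%) and -0.55 in T-like cells (12 of 24, background 3.91%), with 0 genes higher in each. In T-like cells givinostat was the highest library for 23 of 24 genes, and Ifi27l2a was at 432 CPM with panobinostat, 894 with givinostat, 425 with vehicle and 422 with ruxolitinib. By T cell cluster the median was -0.54 in the Ctla4 and Icos cluster, -0.35 in the cytotoxic cluster and 0.12 in the Ccr7 and Lef1 cluster, where 1 of 16 was higher and 0 lower in a background of 8.62% and 9.9%. In NK-like cells it was -0.19, with 2 of 17 lower and 0 higher in a background of 8.31% and 6.39%. At 2920 UMIs per cell T-like cells held a median of 6 (panobinostat), 8 (givinostat), 6 (vehicle) and 6 (ruxolitinib) UMIs of the list. In the same order the medians were 9, 13, 9 and 10 in macrophage-like and 11, 18, 13 and 11 in Chil3 monocyte-like cells. Treml4 monocyte-like cells held 8.5, 12, 11 and 8. Givinostat was the highest library in each of these classes.

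**Figure D4:**
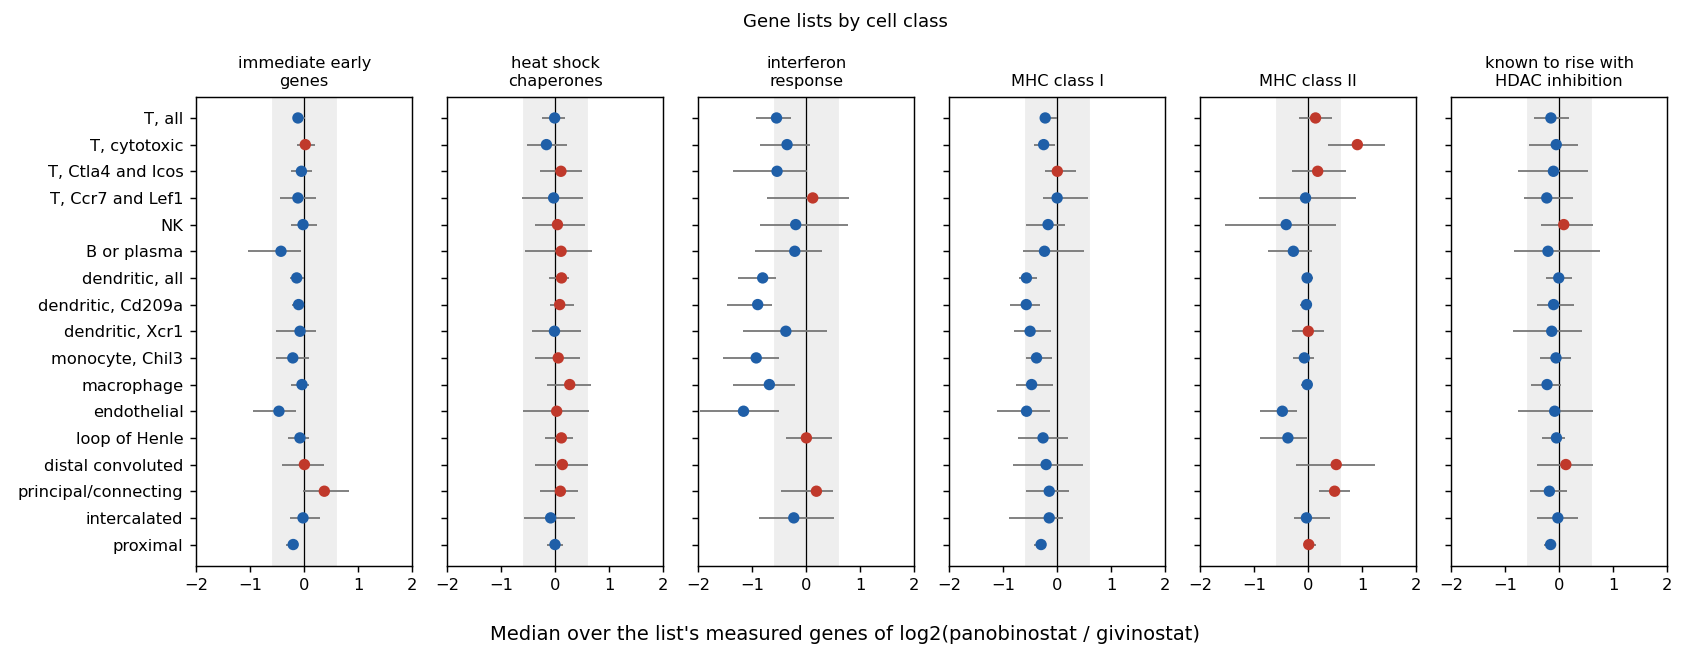
Median log2 ratio of panobinostat to givinostat (x axis) over the measured genes of 6 lists in 17 classes and clusters. Grey lines run from the median of the genes' lower interval bounds to the median of the upper bounds, blue points are below 0 and red points above, and the grey band spans 1.5-fold. The interferon response list lies at -0.80 in dendritic-like cells, lower in endothelial-like and Chil3 monocyte-like cells, and at 0.12 in the Ccr7 and Lef1 cluster. The chaperones lie between -0.16 and 0.27.

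Genes known to rise when HDACs are inhibited had medians near 0 between the libraries. In T-like cells 0 of 13 were past 1.5-fold higher and 3 lower, with a median of -0.15, in a background of 1.23% higher and 3.91% lower. The lower share there was thus above the background. In dendritic-like cells 0 of 12 passed in either direction, with a median of -0.01, in a background of 6.41% and 3.5%. The level of the cell cycle inhibitor Cdkn1a, a gene picked once its values were known, was 52.4 CPM with panobinostat, 130 with givinostat, 119 with vehicle and 90.9 with ruxolitinib in T-like cells. Against vehicle the list's median in T-like cells was 0.00 with panobinostat and 0.12 with givinostat, both over the same vehicle library. In loop of Henle-like cells the median of panobinostat over givinostat was -0.05 with 0 of 15 past 1.5-fold, in a background of 3.63% and 2.71%. The transcripts of the HDACs themselves had medians of -0.10 (T-like, 5 measured), 0.02 (dendritic-like, 4 measured) and -0.13 (loop of Henle-like, 7 measured), with 0 past 1.5-fold in these classes. Acetylation itself was not measured. In proximal tubule-like cells, where 0.749% of 5473 measured genes were past 1.5-fold higher and 1.1% lower, 0 of 19 chaperones passed in either direction and 1 of 23 immediate early genes was lower.

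In the distal nephron the genes that define the loop of Henle were within 1.5-fold of each other in both libraries. Of 27 genes of the distal convoluted tubule 9 were past 1.5-fold lower in the panobinostat library and 1 higher. The background in that class was 7.68% lower and 8.84% higher. Loop of Henle-like cells numbered 147 and 165, and 3.63% of 6282 measured genes were past 1.5-fold higher and 2.71% lower. Of 24 thick ascending limb genes 0 passed in either direction, with a median of -0.10 beside -0.02 over all genes. Umod, the gene of uromodulin, was at 18342 CPM with panobinostat, 19663 with givinostat, 22490 with vehicle and 17238 with ruxolitinib, a ratio of 0.933 [0.918 to 0.947]. Slc12a1, the salt cotransporter that furosemide blocks, was at 3841 and 4382 CPM, and the growth factor Egf at 3712 and 5039. Among the genes with the lowest ratios were Nme7 at 251 and 492 CPM (299.8 vehicle, 334 ruxolitinib), the amino acid carrier Slc38a2 at 217 and 400, and Hes1, a Notch target, at 106 and 181. The 8 genes with the highest ratios were all genes of the proximal tubule, among them Slc34a1, the phosphate carrier, at 563 and 128 CPM (372 vehicle, 142 ruxolitinib). The 15 proximal tubule markers together stood at 7119 and 1252 CPM in this class. Immediate early genes had 0 of 27 higher and 5 lower, with a median of -0.08, and Fos was at 3458 and 3230 CPM. Chaperones had a median of 0.11, with 1 of 22 higher and 0 lower.

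Distal convoluted tubule-like cells, 91 and 55, and principal or connecting tubule-like cells, 66 and 48, were separated at a finer clustering, chosen after the main clustering was seen to merge them. In the merged cluster 4.95% of 5994 measured genes were past 1.5-fold higher and 1.89% lower, and 6 of 26 immediate early genes were higher and 0 lower. In the former 8.84% of 5625 measured genes were past 1.5-fold higher and 7.68% lower, and of 27 genes of this segment 1 was higher and 9 lower, with a median of -0.31. The thiazide-sensitive salt cotransporter Slc12a3, which defines the segment, was at 6890 CPM with panobinostat, 6215 with givinostat, 5437 with vehicle and 5772 with ruxolitinib. The 9 lower genes were Slc8a1, S100g, Calb1, Cnnm2, Trpv5, Trpm6, Atp2b4, Abca13 and Tmem52b. S100g, the calcium buffer calbindin-D9k, was at 5183 and 11092 CPM (13830 vehicle, 6082 ruxolitinib), a ratio of 0.467 [0.450 to 0.485]. Calb1, the buffer calbindin-D28k (chromosome 4, 15881264 to 15908064, GRCm38), was at 2130 and 4108 CPM (4405 vehicle, 1543 ruxolitinib), and Slc8a1, the sodium-calcium exchanger (chromosome 17, 81373105 to 81738377, GRCm38), at 116 and 286 (264 vehicle, 138 ruxolitinib). At equal depth a Calb1 UMI was seen in 56.0% and 56.4% of these cells, so the share of cells with the gene did not show the difference in level. In proximal tubule-like cells the share was 2.30% and 6.09% at equal depth and 5.51% and 21.0% before thinning. The apical calcium channel Trpv5 was at 26.7 and 52.2 CPM and the magnesium channel Trpm6 at 68.6 and 122, both chosen after their values were seen. For these genes ruxolitinib was low together with panobinostat, and vehicle was high together with givinostat. Kl, the co-receptor klotho, was at 627 and 1298 CPM (1031 vehicle, 602 ruxolitinib), and the sodium channel subunit Scnn1b at 64.8 and 139 (124 vehicle, 96.9 ruxolitinib). Parvalbumin, Pvalb, which marks the early part of the segment and was also chosen after its values were seen, was the higher one at 166 and 85.6 CPM. Whether the mix of early and late cells of the segment differed between the libraries was not tested. The stress cytokine Gdf15 was at 74.97 and 254 CPM, but 1 cell held 58.9% of the givinostat UMIs. The proximal tubule markers summed to 17120 and 5187 CPM in this class.

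In principal or connecting tubule-like cells 6.37% of 6102 measured genes were past 1.5-fold higher and 3.1% lower. The 15 proximal tubule markers summed to 5390 and 802 CPM there, with 15 of 15 higher in the panobinostat library, and their part in the values of this class was not tested. With TMM-scaled totals the split of 389 and 189 genes became 268 and 300. Slc8a1 was at 160 CPM with panobinostat, 383 with givinostat, 295 with vehicle and 302 with ruxolitinib, a ratio of 0.417 [0.346 to 0.50]. Calb1 was at 2622, 5664, 4705 and 4135 CPM in the same order, a ratio of 0.463 [0.443 to 0.484], and Kl at 1128, 2295, 1760 and 1697. A Calb1 UMI was seen at equal depth in 81.8% and 81.2% of cells. For these levels panobinostat was the lowest of the 4 libraries and ruxolitinib was near vehicle. Wnk1, a kinase that controls salt transport, was at 559 and 1239 CPM, and the basolateral water channel Aqp4 at 89.4 and 199.5. The vasopressin-regulated water channel Aqp2 was at 3014 and 3900 CPM and the sodium channel subunit Scnn1g at 446 and 481. Of 31 genes of these cells 1 was past 1.5-fold higher and 4 lower, with a median of -0.10. The higher one was Sgk1, a kinase induced by aldosterone, at 251, 143, 124 and 267 CPM.

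Immediate early genes in principal or connecting tubule-like cells were higher in the panobinostat library, with 10 of 27 past 1.5-fold and 0 lower, and a median of 0.37. The background in this class was 6.37% higher and 3.1% lower. Fos was at 1011 CPM with panobinostat, 441 with givinostat, 436 with vehicle and 407 with ruxolitinib, a ratio of 2.29 [2.07 to 2.55]. Dusp1 was at 262 and 134 CPM, Atf3 at 319 and 164, and Gadd45b at 137 and 60.9. Single cells weighed heavily here, since 1 of 48 givinostat cells held 43.6% of that library's Fos UMIs. Without the top cell for each gene the median was 0.96, and with classes called cell by cell it was -0.15, with Dusp1 and Atf3 below a ratio of 1. At equal depth the list made up a median of 6 and 4 UMIs per cell, with the middle 50% of cells at 2 to 25.5 and 2 to 10.5. In distal convoluted tubule-like cells 2 of 24 were higher and 5 lower, with a median of 0.00, in a background of 8.84% and 7.68%. Of the chaperones 3 of 22 were higher in principal or connecting tubule-like cells, among them Hspa1a at 180 and 80.1 CPM (113 vehicle, 106 ruxolitinib), and 3 of 21 in distal convoluted tubule-like cells, with 0 lower in either.

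Intercalated-like cells, 47 and 51, differed in genes of the type A subtype, among them Kit, Slc4a1 and Aqp6. Of 5921 measured genes 5.51% were past 1.5-fold higher and 8.5% lower. The acid-secreting type A cells carry the anion exchanger Slc4a1, the vesicle channel Aqp6 and the receptor Kit, while the base-secreting type B cells carry the exchanger pendrin, Slc26a4. Kit (chromosome 5, 75574916 to 75656722, GRCm38) was at 36.7 CPM with panobinostat, 220 with givinostat, 201 with vehicle and 192 with ruxolitinib, a ratio of 0.167 [0.106 to 0.252]. Slc4a1 (chromosome 11, 102348824 to 102366203, GRCm38) was at 61.6, 206, 160 and 234 CPM in the same order, and Aqp6 at 139, 433, 528 and 472. The panobinostat library was low against 3 similar libraries for each of these. Whether the class held fewer type A cells or these cells held lower levels was not tested. Slc26a4 was at 1166, 984, 832 and 1008 CPM and the proton pump subunit Atp6v1g3, which both types carry, at 5055, 4893, 5139 and 5592. Of 24 acid-base genes 0 were past 1.5-fold higher and 4 lower (Kit, Slc4a1, Aqp6 and Dmrt2), with a median of -0.10. At 2920 UMIs per cell Kit was seen in 2 of 47 panobinostat cells (4.26% [0.520 to 14.5]) and 17 of 51 givinostat cells (33.3% [20.8 to 47.9]), before thinning in 12.8% and 41.2%. Slc26a4 was seen in 85.1% [71.7 to 93.8] and 52.9% [38.5 to 67.1] of cells, before thinning in 89.4% and 58.8%. Other genes of type B cells, chosen after their values were seen, did not show such a gap: Slc4a9 was seen in 40.4% and 39.2% of thinned cells and Insrr in 46.8% [32.1 to 61.9] and 37.3% [24.1 to 51.9]. Thinned shares in proximal tubule-like cells, which should lack Kit and Slc26a4, were 0.0793% and 0% for Kit, where 0 of 1198 cells allows up to 0.250% by the limit of 3 counts, and 0.595% and 0.334% for Slc26a4. The median depth was 13585 and 23872 UMIs in intercalated-like cells and 7681 and 12873.5 in proximal tubule-like cells.

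The remaining genes of intercalated-like cells named by size included the peptidase Mme at 172 and 498 CPM (335 vehicle, 316 ruxolitinib), the adhesion receptor Adgrf5 at 182 and 502, and Cd24a at 131 and 327. On the higher side Cndp2 was at 180 and 41.8 CPM and Ttc36 at 213 and 49.5, while Umod, a loop of Henle gene, was at 742 and 200.5 CPM (603 vehicle, 891 ruxolitinib). The 15 proximal tubule markers summed to 9457 and 930 CPM in this class, the widest ratio over the 18 other classes and clusters (10.2), and erythroid transcripts to 80.7 and 2446 CPM. Their part in the values of this class, that of Slc4a1 included, was not tested. Chaperones had 3 of 22 past 1.5-fold lower and 0 higher, with a median of -0.08. Immediate early genes had 2 of 28 higher and 2 lower, with a median of -0.02. The background in this class was 5.51% higher and 8.5% lower. With 1 cell holding 40.0% of the panobinostat UMIs of Kit and 54.8% of those of Slc4a1, the ratios without the top cell of each library were 0.116 and 0.175.

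**Figure D5:**
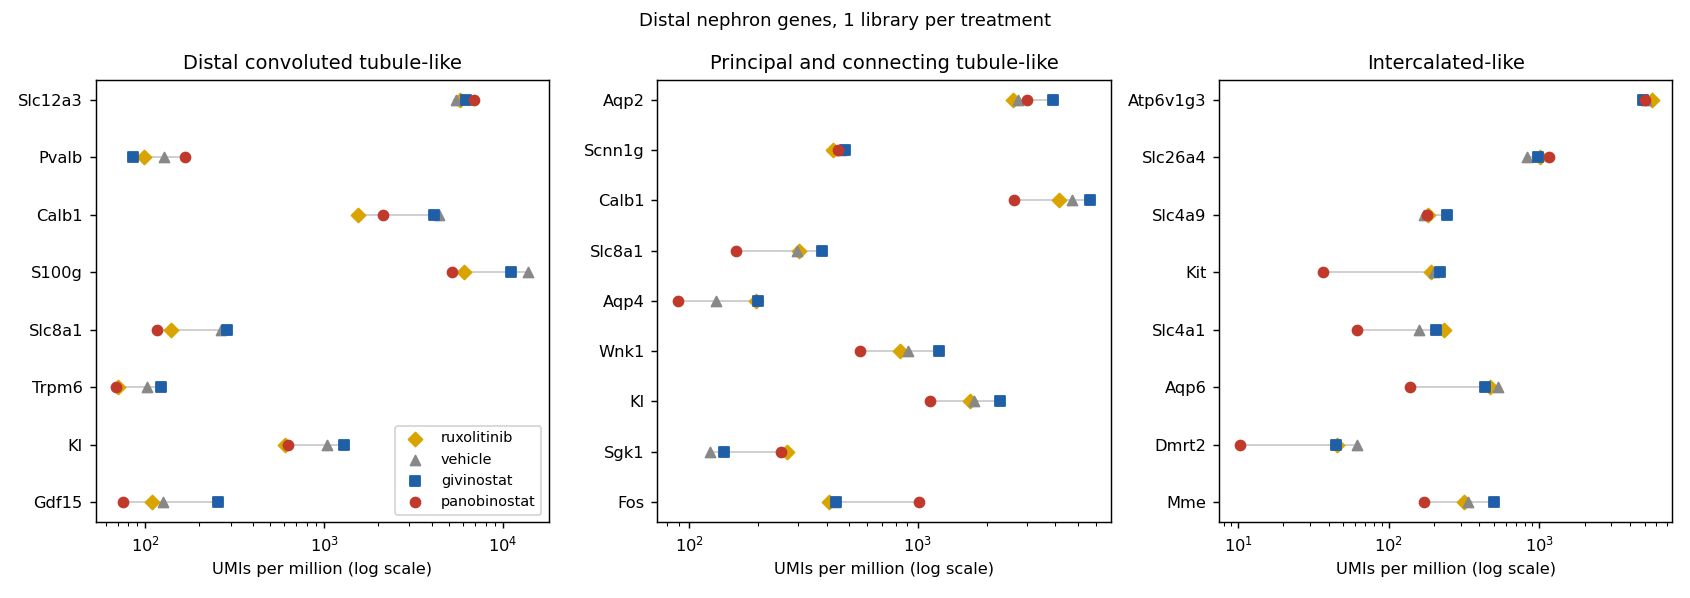
Levels of named genes in distal convoluted tubule-like, principal or connecting tubule-like and intercalated-like cells (x axis, CPM, log scale), 1 point per library. Slc12a3, Aqp2 and Atp6v1g3 lie close together, and Calb1, Slc8a1, Kit, Slc4a1 and Aqp6 are lower in the panobinostat library than in the givinostat library.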

How the data were processed

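Single-cell RNA libraries of total kidney cells, 1 per group, were analysed from the UMI count matrix the authors deposited. Per the submitters' processing notes it was made with Cell Ranger 3.0.1 on mm10. Cells were assigned by barcode suffix, and the vehicle library's suffix was matched by elimination. Unmapped columns numbered 0. Of 15758 distinct barcodes, 19 occurred in more than 1 library. Cells with at least 200 genes were kept, scaled to 10000 UMIs, and clustered in scanpy 1.11.5 (Python 3.11.15, numpy 2.4.6, scipy 1.17.1) with 2000 variable genes, 30 components, 15 neighbours and Leiden resolution 1 (leidenalg 0.10.2). Of 31 clusters 28 were named from markers (at least 3 detected, lead 0.5), 1 stayed unnamed, and 2 with a cycling score above 4, a threshold set after seeing the data, stayed out of every class. Names are rebuilt and could differ from the authors'. Scrublet called 0.0682% of panobinostat, 2.30% of givinostat, 0.0254% of vehicle and 0.302% of ruxolitinib cells doublets. It did not work in the panobinostat, vehicle and ruxolitinib libraries, so calls were removed in an alternative only.

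Raw counts were summed per class and library. With 1 library a side no test was made. Intervals of ratios were exact (conditional binomial) and those of shares were Clopper-Pearson. Only the ratio intervals were run on simulated counts. Those counts held counting error alone, so the run cannot show how the intervals hold where single cells carry many UMIs. PCR copies are collapsed by UMIs, and each interval is for counting error only. TMM totals came from edgeR 4.0.16 (R 4.3.3). Named genes were the 8 highest and 8 lowest ratios at a mean of at least 100 CPM, all measured chaperone and immediate early genes, and the most abundant members of the other lists. Genes outside this rule, including those that spell out a count of 5 or fewer, were chosen after their values were seen. The members and the 27 gene lists were chosen with earlier results of these data known. Alternatives changed the cell filter, resolution, class calls, doublets, UMI floor, totals, cluster mix, depth, pseudocount and gene filter. Gene positions are from GENCODE on GRCm38. Some single genes are not reported here, though they remain in the counts and medians of their lists.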

Additional observations from a re-analysis of the deposited data

Results flagged for a closer look

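Cells under 200 detected genes, which no comparison used, were 109 of 4505 deposited barcodes with panobinostat (2.42%), 2 of 3474 with givinostat (0.0576%), 0 with vehicle and 115 of 4094 with ruxolitinib (2.81%). They stood out because they were present in 3 libraries and not in the vehicle library, which therefore gives no level of its own for such cells. Erythroid transcripts made up 92.1% of their UMIs with panobinostat, 93.1% with givinostat and 93.8% with ruxolitinib.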

How the results depend on the processing

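No paired analysis was possible because each group is 1 library. Over the alternatives, 197 of 204 list medians and 5829 of 6560 gene values moved by less than their limits, 707 gene values moved and 24 reversed. A reversal was counted only where the main value was past 1.5-fold, which held for 184 of 549 gene results. Changes of direction in the others were not counted as reversals. Of 184 named gene results past 1.5-fold, 167 kept their direction in every alternative and 88 stayed past 1.5-fold. The cause of the shifts below was not tested. Share ratios over kept cells were 0.442 (T-like), 0.880 (NK-like) and 0.901 (dendritic-like). At a common UMI floor of 5272 they were 0.168, 0.184 and 1.23, and dendritic-like 1.12 at resolution 0.5. Genes past 1.5-fold in T-like cells (281) became 434 with the stricter cell filter, 581 at resolution 1.5, 900 at the UMI floor and 179 with an equal cluster mix. With a pseudocount of 20 CPM, a 50 CPM minimum and no gene filter they became 132, 120 and 696. In the same order the counts were 369, 251 and 1540 in dendritic-like (583), 199, 136 and 1407 in loop of Henle-like (398), 449, 322 and 3175 in distal convoluted (929), 269, 183 and 2181 in principal (578) and 399, 259 and 2903 in intercalated-like cells (829). Thinning gave 906 in dendritic-like, 1034 in loop of Henle-like and 527 in intercalated-like cells, and the stricter filter 929 in principal cells. The T-like immediate early median (-0.12) was -0.26 with the stricter filter, -0.31 at resolution 1.5 and -0.34 at the UMI floor. The dendritic-like interferon median (-0.80) was -0.29 at resolution 0.5 and -0.54 at 1.5. The principal cell immediate early median (0.37) was -0.15 with classes cell by cell and 0.96 without each gene's top cell, an alternative added after seeing the data, as was leaving out leukocytes with over 5% tubule RNA. Log2 ratios that reversed in dendritic-like cells were, at resolution 0.5, C1qb -0.76, Gatm -0.11, Mgl2 -0.16 and Nr4a3 0.012, and C1qb -0.38 cell by cell. Cxcl10 there was 0.44 with the stricter filter, 0.99 at resolution 1.5, 0.76 cell by cell and 0.18 without the top cell. In loop of Henle-like cells Cryab was -0.64 with the stricter filter, -0.83 at resolution 0.5 and -0.88 at 1.5, where Rgs1 was 0.050. Cell by cell, Cryab was -0.59, Hspb1 -0.67 and Tnfaip3 0.039 in distal convoluted, Atf3 -0.086, Dusp1 -0.41 and Zfp36 -0.062 in principal, and Ier3 1.01 and Rgs1 0.14 in B or plasma-like cells. With the stricter filter, Atf3 was -0.028, Klf6 -0.080 and Mccc1 0.19 in principal cells. Depth was lower with panobinostat in every class compared. The stricter filter gave no value for distal convoluted and intercalated-like cells, the UMI floor none for gene levels of NK-like and B or plasma-like cells, and resolution 0.5 none for distal convoluted cells. An equal cluster mix applied to classes of several clusters only.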

Other observations

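Endothelial-like cells, 42 with panobinostat and 67 with givinostat, were not among the classes described above. Of 7026 measured genes 11.9% were past 1.5-fold higher and 15.6% lower. Of 32 measured interferon response genes 0 were higher and 27 lower, with a median log2 ratio of -1.16. B2m was at 1998 CPM with panobinostat, 4165 with givinostat, 1572 with vehicle and 2016 with ruxolitinib, and Ifit2, which binds viral RNA, at 30.5, 176, 42.8 and 94.1 CPM. Givinostat was the high library for both. Macrophage markers summed to 2017 and 8044 CPM in this class and erythroid transcripts to 6787 and 118 CPM, and their part was not tested. In Chil3 monocyte-like cells Ifi27l2a was at 1324, 2345, 1426 and 1137 CPM and Irf7 at 112, 216, 225 and 111 CPM. In macrophage-like cells the chaperone gene Hspa1a was at 721, 391, 406 and 434 CPM, with 4 of 18 chaperones past 1.5-fold higher and 0 lower in a background of 7.72% and 8.67%. These genes were chosen after their values were seen.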
